A study of Mus musculus with 2 samples.

Results

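The genes described here are 6 transcripts that stood higher in bone endothelial cells (ECs) after forced expression of the transcription factor Dach1. They are Scgb3a1, Wfdc1, Clca3a1, Enpp6, Vsir and Sh3tc1, 6 of the 28380 genes listed in the count tables. They were chosen by their Dach1OE-over-Control ratio in ECs of these same libraries, so that ratio is given as a description and carries no test.

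Cells of mouse femur and tibia were depleted of blood lineage cells and sequenced on the BD Rhapsody platform, which tags each molecule with a unique molecular identifier (UMI). There was 1 library per group, and each pooled male and female C57BL/6 mice at postnatal day 30. The Dach1OE library came from mice of the genotype Apj CreERT2 - Dach1OE +/f, in which tamoxifen switches on a Dach1 transgene in cells that express Apj (Aplnr), the apelin receptor. The Control library came from mice of the genotype Dach1OE +/f, which carry the transgene allele without Cre and also received tamoxifen. Tamoxifen was given shortly after birth, the mice were also crossed to the R26-mT/mG reporter, and a pair of mice was pooled for each library, with littermates as controls. With 1 library per group there is no replicate error, so differences are given with exact 95% counting intervals, which cover counting error only and not the variation between mice.

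Bone vessels are not uniform. Sinusoidal (type L) ECs line the marrow, metaphyseal (type H) ECs lie beneath the growth plate, arterial ECs feed both, and the remodelling (type R) capillaries lie downstream of arteries around trabecular bone. Dach1 is a nuclear factor known from coronary artery growth. The 6 genes do not form a pathway: Scgb3a1 and Wfdc1 encode small secreted proteins, Clca3a1 and Vsir encode proteins of the cell surface, Enpp6 is a choline-releasing phosphodiesterase, and Sh3tc1 is a little-studied protein with SH3 and tetratricopeptide repeat domains.

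The genes lie on separate loci of the mouse genome (GRCm38, GENCODE vM21 positions). Scgb3a1 spans chromosome 11, 49663610 to 49665118 (plus strand), and Clca3a1 spans chromosome 3, 144729677 to 144760977 (minus strand). Enpp6 (46986887 to 47096762) and Wfdc1 (119666365 to 119688222) both lie on the plus strand of chromosome 8. Sh3tc1 spans chromosome 5, 35697180 to 35739987 (minus strand), and Vsir spans chromosome 10, 60346851 to 60372684 (plus strand).

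RefSeq promoter windows of 300 bases (250 before the start to 50 after it, GRCm38.p6) were at hand for 5 of the 6 members, all but Wfdc1. The windows of Scgb3a1, Clca3a1 and Vsir are shown, as these had the largest EC ratios among the members with a window. Capitals mark matches on either strand to CACCC, the CACCC box bound by the KLF family, and to GGAAGT, a core of the ETS family. Neither overlaps the other in these windows.
Scgb3a1, chr11:49663345-49663644, plus strand: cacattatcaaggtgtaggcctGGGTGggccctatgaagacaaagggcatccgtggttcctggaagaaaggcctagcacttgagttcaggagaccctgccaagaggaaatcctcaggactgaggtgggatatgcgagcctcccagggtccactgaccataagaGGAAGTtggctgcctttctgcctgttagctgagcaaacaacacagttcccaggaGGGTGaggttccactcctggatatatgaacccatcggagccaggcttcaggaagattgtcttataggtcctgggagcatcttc
Clca3a1, chr3:144760928-144761227, minus strand: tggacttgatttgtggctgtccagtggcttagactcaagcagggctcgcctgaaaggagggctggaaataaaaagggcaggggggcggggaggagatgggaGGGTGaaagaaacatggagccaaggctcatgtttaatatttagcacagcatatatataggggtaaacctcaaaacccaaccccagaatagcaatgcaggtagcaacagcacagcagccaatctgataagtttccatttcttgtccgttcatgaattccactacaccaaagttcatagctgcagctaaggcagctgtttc
Vsir, chr10:60346601-60346900, plus strand: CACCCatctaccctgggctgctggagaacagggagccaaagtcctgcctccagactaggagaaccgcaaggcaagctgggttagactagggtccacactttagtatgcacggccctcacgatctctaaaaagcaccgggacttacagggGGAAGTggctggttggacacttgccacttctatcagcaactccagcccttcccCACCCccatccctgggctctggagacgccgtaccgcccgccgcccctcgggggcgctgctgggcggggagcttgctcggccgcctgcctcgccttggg

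The CACCC letters were found in 4 of the 5 members with a window, Enpp6 being without, and in 57.5% of all 32851 promoter windows. GGAAGT was found in Scgb3a1, Vsir and the second window of Sh3tc1, and in 23.8% of all windows. The TATA box (TATAAA) and a forkhead core (TGTTTAC) were found in no member window, and in 13.6% and 3.65% of all windows. ATTGTT, a SOX core, was found in Enpp6 and in 10.7% of all windows. These matches are letters in short windows and do not show that a factor binds there. The Vsir window held 15 CpG pairs, against a median of 7 over all windows, while Scgb3a1 and Clca3a1 held 3 each.

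The libraries were alike in depth. After keeping cells with 500 to 6000 genes and under 25% mitochondrial UMIs, 26466 of 28720 Control and 29317 of 32028 Dach1OE cells remained, with a median of 3794 and 4055 UMIs. Marker genes gated 9528 Control and 9972 Dach1OE ECs, with a median of 2780 and 2788 UMIs. Every marker of each list stood higher in its own gate than outside it in both libraries. The gates were built on these same markers, so this is no independent check. The libraries shared 1049 cell indexes, and without those cells the count of members past 2-fold was also 2.

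Dach1 itself had 171 UMIs in the ECs of the Control library against 6551 in those of the Dach1OE library. As CPM, the UMIs of a gene per 1000000 UMIs of the same population, these are 5.2 and 193 (log2 ratio 5.22). In every EC subtype of Dach1OE it stood between 143 CPM in the proliferating gate and 233 in the arterial gate. Aplnr, the gene behind the Cre driver, stood in Control at 1318 CPM in metaphyseal, 399 in sinusoidal, 321 in remodelling and 52.6 in arterial ECs, Aplnr being among the markers of the metaphyseal gate.

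All 6 members stood higher in Dach1OE ECs, by very different amounts. Scgb3a1, a secretoglobin best known from airway secretory cells, went from 416 UMIs in Control to 13962 in Dach1OE, or from 12.6 to 412 CPM. Wfdc1, a secreted protein with a whey acidic protein domain, went from 34 to 1034 UMIs, or from 1.03 to 30.5 CPM. These were the 8th and 10th largest ratios among 14077 EC genes with at least 50 UMIs, at log2 5.03 (4.89 to 5.17) and 4.88 (4.39 to 5.42).

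The other 4 were already well expressed in Control ECs and differed less. Clca3a1, of the CLCA family of metalloprotease-like surface proteins, went from 9066 to 17569 UMIs, or from 276 to 519 CPM (log2 0.91, 0.88 to 0.95). Vsir, which encodes the immune checkpoint protein VISTA, went from 3123 to 5358 UMIs, or from 94.9 to 158 CPM (log2 0.74, 0.67 to 0.80). Enpp6 went from 10212 to 14263 UMIs, or from 310 to 421 CPM (log2 0.44, 0.40 to 0.48). Sh3tc1 went from 3078 to 4136 UMIs, or from 93.6 to 122 CPM (log2 0.38, 0.32 to 0.45). For all 6, the counting intervals of both libraries lay apart. Such a difference was common: among 9409 better counted EC genes, 33.9% had a ratio interval above no difference and 22.9% had one below it.

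Thus 2 of the 6 members stood at least 2-fold higher over all ECs, where 3.24% of all EC genes tested did. The median log2 ratio of the members was 0.82, beside a median of 0.04 over all genes. Since this contrast chose the members, nothing is read from these counts. Sh3tc1 ranked 1975th and Enpp6 1659th of the 14077 genes, so that the set runs from among the largest EC differences down to ordinary ones.

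The make-up of the ECs differed between the libraries, and the members are unevenly spread over EC subtypes. The marker gates take the study's abbreviations. The bmEC gate holds sinusoidal cells, the mpEC gate metaphyseal cells, the aEC gate arterial cells, the rEC gate cells of type R capillaries and the pEC gate dividing cells, with small tip-like and lymphatic gates beside them. bmECs made up 61.1% of Control ECs (5818 cells) and 38% of Dach1OE ECs (3790 cells). aECs made up 2.67% (254 cells) and 10.1% (1012 cells), and rECs 5.56% (530 cells) and 7.44% (742 cells). mpECs made up 15.5% (1479 cells) and 19.5% (1944 cells), and cells in no gate 10% and 16.8%. No member and not Dach1 was used in the gates. The study reports lower Stab2, Flt4 and Gpr182, all of them markers of the bmEC gate, in Dach1OE ECs. Whether the bmEC gate held like cells in both libraries was not tested. In Control most EC UMIs came from bmECs for Scgb3a1 (92.1%), Clca3a1 (92.4%), Vsir (76.2%), Sh3tc1 (70.5%) and Enpp6 (66.4%). That gate held fewer cells in Dach1OE.

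The whole-EC ratio was therefore set beside the ratio that results when the Dach1OE subtypes are weighted by their Control share of UMIs. At the Control make-up the log2 ratio of Clca3a1 was 1.46 in place of 0.91, that of Vsir 0.94 in place of 0.74, and that of Enpp6 0.72 in place of 0.44. Scgb3a1 stood at 5.51 and Sh3tc1 at 0.55. Wfdc1 went the other way, from 4.88 to 3.24. The aEC gate, which was larger in Dach1OE, held 47.1% of its EC UMIs in Control and 83.8% in Dach1OE. The shift of make-up by itself, with Control levels held in each subtype, gave a log2 change of -0.60 for Clca3a1, -0.58 for Scgb3a1 and 1.26 for Wfdc1.

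**Figure D1:**
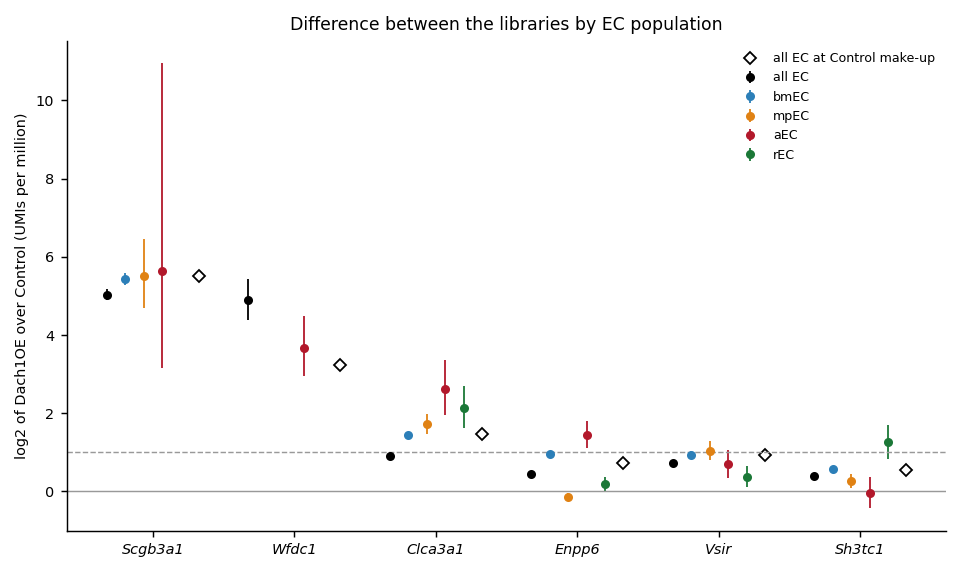
log2 ratio of CPM, Dach1OE over Control, for each member over all ECs, in 4 EC subtypes (points, bars are exact 95% counting intervals) and over all ECs at the Control make-up (open diamonds). Solid and dashed lines mark no difference and 2-fold; subtypes in which a member had under 50 UMIs, or none in Control, are not drawn. Clca3a1 lies above 2-fold in all 4 subtypes but not over all ECs.

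In bmECs, Scgb3a1 and Clca3a1 were the members that stood out. Scgb3a1 went from 18.5 (16.7 to 20.4) to 797 (782 to 813) CPM, a log2 ratio of 5.43 (5.28 to 5.58). Clca3a1 went from 405 to 1098 CPM (log2 1.44, 1.40 to 1.48). These 2 of the 5 members with enough UMIs stood at least 2-fold higher, where 1.92% of all bmEC genes did. Enpp6 stood at 327 and 632 CPM (log2 0.95, 0.902 to 0.996), Vsir at 115 and 221 (log2 0.94, 0.86 to 1.02) and Sh3tc1 at 105 and 155 (log2 0.57, 0.48 to 0.66). Wfdc1 had 13 and 15 UMIs in all bmECs of Control and Dach1OE, and the interval of its ratio spans no difference.

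Immediate early and stress genes, which cells switch on while tissue is taken apart, differed in the same gate. Of 17 such genes, listed after the data were seen, 16 stood higher in Dach1OE bmECs beyond counting error, where 23.6% of all bmEC genes with at least as many UMIs did. The remaining gene, Egr1, was lower (log2 -0.41, -0.56 to -0.27), where 18.1% were. Their summed level in bmECs was 3128 CPM in Control and 4389 in Dach1OE (log2 0.49, 0.47 to 0.50). Over all ECs 9 of the 17 stood higher and 6 lower (summed log2 ratio 0.14), where 33.9% and 22.9% of all genes did. In aECs 7 were higher and 1 lower (0.31), where 12.2% and 11% were, and in mpECs 5 higher and 4 lower (-0.018), where 16.1% and 13.7% were. In rECs 1 was higher and 10 lower (-0.31), where 15.3% and 12% were. Their part in the differences of the members was not tested.

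The bmEC difference in Scgb3a1 was spread over many cells. A Scgb3a1 UMI was seen in 342 of 5818 Control bmECs and in 2036 of 3790 Dach1OE bmECs, or 5.88% and 53.7%, at a median of 2918 and 2731 UMIs per cell. No Control bmEC held more than 4 Scgb3a1 UMIs, while 771 Dach1OE bmECs held 5 or more and the highest held 40. With every cell thinned to 1000 UMIs, the shares were 1.80% (1.47 to 2.18) and 38% (36.5 to 39.6). For Clca3a1 the thinned share of bmECs went from 31.5% (30.3 to 32.7) to 59.9% (58.3 to 61.4). Enpp6 (24.9% and 41.4%), Vsir (11.2% and 19.2%) and Sh3tc1 (10.2% and 14.5%) were also found in more Dach1OE bmECs at that fixed depth, beyond counting error.

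Among the EC gates, Wfdc1 was highest in aECs of both libraries. It had 16 UMIs in 254 Control aECs and 867 UMIs in 1012 Dach1OE aECs, or 18.3 (10.5 to 29.7) and 233 (218 to 249) CPM. The log2 ratio inside the aEC gate was 3.67 (2.96 to 4.49). At 1000 UMIs per cell, 3.21% (1.40 to 6.23) of Control aECs and 20% (17.6 to 22.7) of Dach1OE aECs held a UMI. Wfdc1 was among the 10 genes that most set the aEC gate of Dach1OE apart, although no gate used it. Among these 10 genes the libraries shared only Gja5, Sema3g and Stmn2, which are markers that built the gate. Whether the aEC gate held like cells in both was not tested. The ratio rests on 16 Control UMIs, and with a mitochondrial limit of 10% it was 5.06.

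The other members in aECs divided. Clca3a1 went from 21.7 to 133 CPM (log2 2.61, 1.95 to 3.35), a ratio that was 4.65 in aECs with Y-linked UMIs only and 3.30 in those with Xist only, on 1 and 4 Control UMIs. Enpp6 went from 90.3 to 248 (log2 1.46, 1.12 to 1.81). Vsir stood at 83.5 and 135 (log2 0.69, 0.33 to 1.07). Sh3tc1 stood at 73.2 and 71.3 CPM, and its interval spans no difference (log2 -0.038, -0.44 to 0.38). Scgb3a1 had 1 UMI in Control aECs and 213 in Dach1OE aECs, a log2 ratio of 5.65 with an interval from 3.15 to 10.96, and of 4.19 in aECs with Xist only. Thus 4 of the 6 members stood at least 2-fold higher in aECs, where 4.68% of all aEC genes did.

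In mpECs, the cells with the highest Aplnr, 3 of the 5 members with enough UMIs stood at least 2-fold higher, where 1.6% of all mpEC genes did. Scgb3a1 went from 12 to 758 UMIs, or from 2.54 to 115 CPM (log2 5.50, 4.68 to 6.46). Clca3a1 went from 33.1 to 109 CPM (log2 1.73, 1.48 to 1.99), and Vsir from 40.7 to 83.2 (log2 1.03, 0.79 to 1.28). Sh3tc1 stood at 88 and 106 (log2 0.27, 0.09 to 0.45). Enpp6 was lower in Dach1OE mpECs, at 328 and 298 CPM (log2 -0.14, -0.24 to -0.04), the reverse of its difference in bmECs. Of the mpECs, those with Y-linked UMIs only turned the other way (log2 0.18, -0.017 to 0.37).

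In rECs, the gate of type R capillaries, Scgb3a1 had no UMI in 530 Control cells and 423 UMIs in 742 Dach1OE cells. Against a floor of 3 counts in the Control gate, it was at least 90.7-fold higher, while the exact 95% interval of the log2 ratio starts lower, at 6.20. At 1000 UMIs per cell, 0 of 513 Control rECs held a UMI, which allows a share of cells with a UMI of up to 0.585%, against 11.2% (8.93 to 13.7) of Dach1OE rECs. Clca3a1 went from 25.9 to 114 CPM (log2 2.14, 1.62 to 2.70). Sh3tc1 went from 41.9 to 100 (log2 1.25, 0.82 to 1.71), close to its 1.28 (0.54 to 2.10) in tip-like cells. Enpp6 stood at 294 and 335 (log2 0.19, 0.01 to 0.37) and Vsir at 129 and 167 (log2 0.37, 0.10 to 0.65). Both turned in part of the cells, Enpp6 to -0.026 in rECs with Xist only and Vsir to -0.079 in rECs with Y-linked UMIs only, with intervals that span no difference. Thus 3 of the 5 members with enough UMIs stood at least 2-fold higher in rECs, where 3.16% of all rEC genes did. In the same gate the pan-endothelial gene Cdh5 (VE-cadherin) went from 1059 to 1682 CPM (log2 0.67, 0.58 to 0.76), against log2 0.17 in bmECs, 0.05 in mpECs and 0.15 in aECs. Of the 10 genes that most set the rEC gate apart, the libraries shared C1qtnf9, Tagln and Crip1. C1qtnf9 is a marker that built the gate. Whether the gate held like cells in both libraries was not tested.

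**Figure D2:**
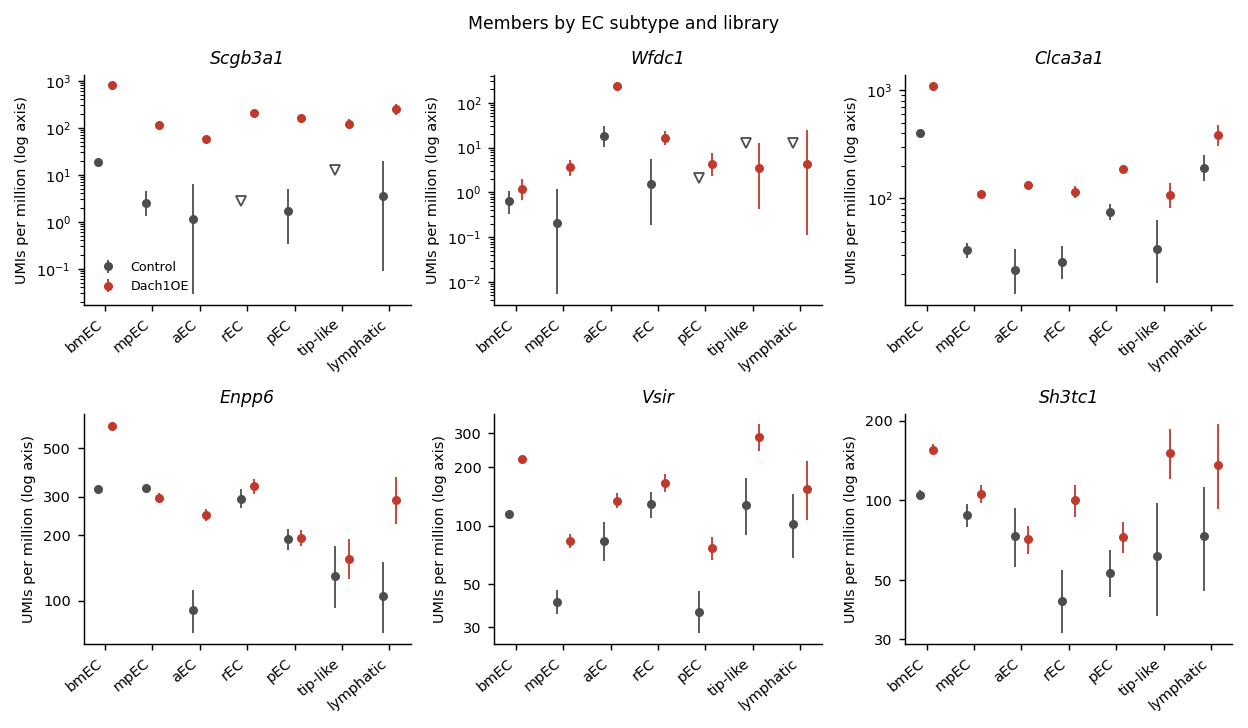
CPM of each member (log axis) in 7 EC subtypes of the Control and Dach1OE libraries, with exact 95% counting intervals; open triangles give the upper limit where no UMI was seen. Scgb3a1 lies higher in Dach1OE in all 7 subtypes, Wfdc1 is highest in aECs of both libraries, and Enpp6 in mpECs lies lower in Dach1OE, though not in the mpECs with Y-linked UMIs only (log2 0.18).

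The order of subtypes was partly kept between the libraries. Clca3a1 was highest in bmECs of both, followed by lymphatic ECs (192 and 383 CPM) and pECs (75.1 and 186). In Control its levels in mpECs, aECs, rECs and tip-like cells lay between 21.7 and 34.4, and the intervals of neighbouring gates overlapped. In Dach1OE the same 4 gates lay between 107 and 133, again with overlapping neighbours. Scgb3a1 was highest in bmECs of Dach1OE, at 797 CPM, followed by lymphatic ECs (246), rECs (207) and pECs (162), and lowest in aECs (57.3). The levels in lymphatic ECs and rECs do not differ beyond their intervals.

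Vsir had another order. Its highest Dach1OE level was in the 194 tip-like cells, at 286 CPM (244 to 333), above the 221 (213 to 229) of bmECs. In Control the tip-like, rEC and bmEC levels of Vsir (127, 129 and 115) did not differ beyond their intervals. Enpp6 in Control stood level in mpECs and bmECs (328 and 327), while in Dach1OE bmECs stood at 632 and the next gate, rECs, at 335. The Dach1OE levels of Sh3tc1 ran from 71.3 in aECs to 155 in bmECs, with tip-like cells at 151.

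The small gates followed the same direction for most members. In pECs Scgb3a1 went from 3 to 486 UMIs (log2 6.61), Clca3a1 stood at 75.1 and 186 CPM and Vsir at 36.1 and 76.5, while Enpp6 stood at 191 and 195. Scrublet marked 29.2% of Control and 23.9% of Dach1OE pECs as doublets. In lymphatic ECs Enpp6 went from 105 to 290 CPM (log2 1.47), on 30 and 66 UMIs.

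Within the Dach1OE library, ECs with a Dach1 UMI were compared with ECs without. This contrast lies inside a single library, but its cells belong to the contrast that chose the members. All 6 members stood higher in the 3789 ECs with a Dach1 UMI than in the 6183 without. Scgb3a1 stood at 561 against 290 CPM (log2 0.95), and Wfdc1 at 42.7 against 20.6 (log2 1.05, 0.86 to 1.23). Vsir stood at 184 against 137 (log2 0.43), Enpp6 at 472 against 379 (log2 0.32), Clca3a1 at 575 against 472 (log2 0.28) and Sh3tc1 at 131 against 115 (log2 0.20, 0.11 to 0.29). For Sh3tc1 the interval spans no difference in ECs with Y-linked UMIs only (log2 0.052, -0.12 to 0.22), while the ratio was 0.33 (0.17 to 0.49) in those with Xist only. Wfdc1 was the 1 member past 2-fold, where 0.259% of all EC genes were. The median over the members was 0.37 and the median over all genes 0.0021. By this ratio the members ranked from 25th (Wfdc1) to 1669th (Sh3tc1) of 12736 genes. How many of all genes had an interval above 0 in this contrast was not counted.

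A Dach1 UMI is seen more often in deeply sequenced cells, so the contrast was repeated at like depth. Among ECs of 1000 to 2000, 2000 to 4000 and 4000 to 8000 UMIs the log2 ratio of Scgb3a1 was 0.91, 1.03 and 1.18. Vsir (0.31, 0.58 and 0.56), Clca3a1 (0.29, 0.31 and 0.46) and Sh3tc1 (0.27, 0.37 and 0.20) were also higher in cells with a Dach1 UMI in all 3 bands. Enpp6 (0.35 and 0.52) and Wfdc1 (1.02 and 1.52) were higher in the upper bands, while in the lowest band their intervals span no difference (0.12, -0.029 to 0.26, and 0.23, -0.37 to 0.81). With cells thinned to 1000 UMIs, for Dach1 and members alike, the ratios were 0.80 for Scgb3a1, 0.81 for Wfdc1, 0.42 for Vsir, 0.33 for Sh3tc1, 0.25 for Clca3a1 and 0.22 for Enpp6, and no interval reached 0.

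Within bmECs the same contrast gave 1140 against 545 CPM for Scgb3a1 (log2 1.07, 1.01 to 1.12), the 1 of 5 members past 2-fold, where 0.289% of all bmEC genes were. Enpp6 (746 against 547), Vsir (265 against 188), Clca3a1 (1251 against 985) and Sh3tc1 (170 against 145) stood higher by less. At like depth in bmECs, the intervals of Scgb3a1, Vsir and Clca3a1 stayed above 0 in all 3 bands. That of Enpp6 spans no difference in the lowest band (log2 0.18, -0.021 to 0.38). That of Sh3tc1 spans it in the lowest (0.19, -0.22 to 0.60) and highest (0.19, -0.029 to 0.40). Within aECs Wfdc1 stood at 272 against 186 CPM (log2 0.55, 0.34 to 0.75), less than its 1.05 over all ECs. For Sh3tc1 in aECs the interval spans no difference (log2 -0.018, -0.38 to 0.34).

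In bmECs most of the difference lay between 0 and 1 Dach1 UMI. Scgb3a1 stood there at 545, 1043, 1241 and 1246 CPM in cells with 0, 1, 2 and 3 or more Dach1 UMIs. Clca3a1 stood at 985, 1232, 1313 and 1223 in the same classes, and Vsir at 188, 264, 260 and 272. Enpp6 stood at 547, 719, 753 and 801. Between 2 and 3 or more Dach1 UMIs the intervals of each of these members overlapped. The classes were not matched for depth, with a median of 2480.5, 3083, 3614 and 4363 UMIs per cell. In bmECs with a Dach1 UMI, Scgb3a1 fell with depth, at 1536, 1187 and 1115 CPM over the 3 depth bands. The part of depth in the levelling off was not tested. Other gates varied, with Scgb3a1 at 82, 133, 195 and 201 CPM in mpECs and at 129, 296, 243 and 473 in rECs over the Dach1 UMI classes. In pECs it stood at 78.4, 239, 269 and 221. There, as in bmECs, most of the difference lay between 0 and 1 Dach1 UMI.

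Dach1OE cells in which no Dach1 UMI was seen still stood above Control. In bmECs without a Dach1 UMI, Scgb3a1 was at 545 CPM against 18.5 in Control (log2 4.88, 4.73 to 5.04). Clca3a1 was at 985 against 405 (log2 1.28), Enpp6 at 547 against 327 (log2 0.74), Vsir at 188 against 115 (log2 0.71) and Sh3tc1 at 145 against 105 (log2 0.47). A cell without a Dach1 UMI may still express Dach1 at this depth, and how many such cells lacked recombination was not tested. In mpECs without a Dach1 UMI, Enpp6 stood at 283 against 328 CPM in Control (log2 -0.21, -0.32 to -0.10).

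**Figure D3:**
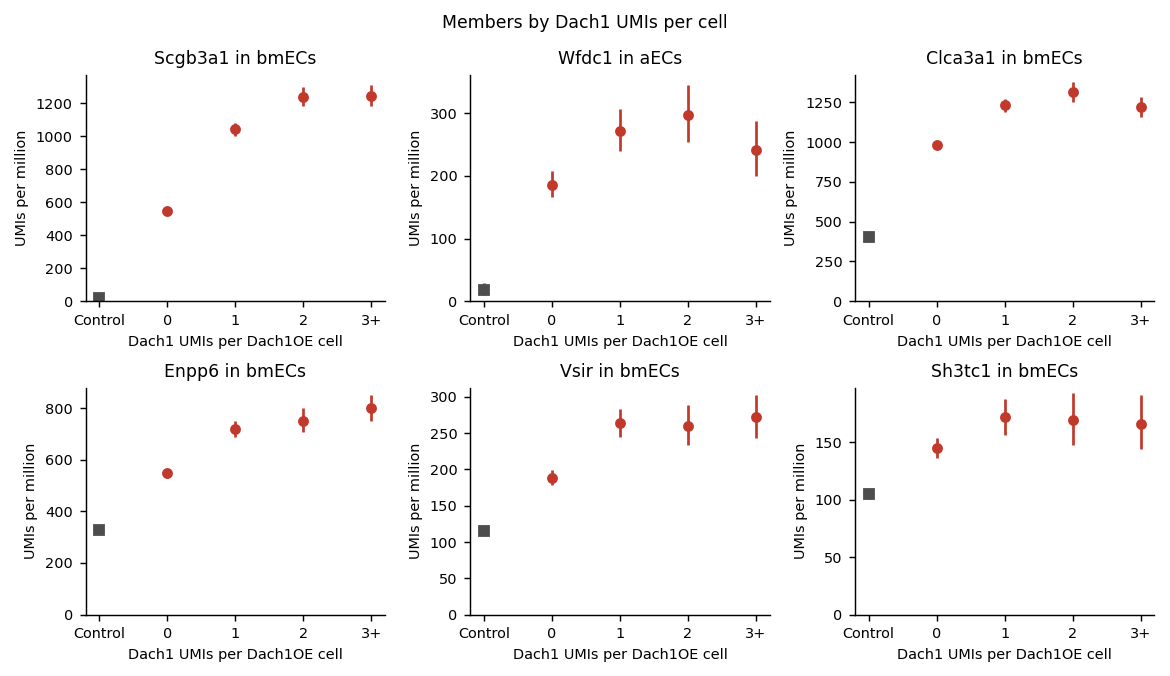
CPM of each member in Control (squares) and in Dach1OE cells grouped by their number of Dach1 UMIs (points), in bmECs or, for Wfdc1, in aECs, with exact 95% counting intervals and axes from 0. Each member lies higher in Dach1OE cells with no Dach1 UMI than in Control and higher again in cells with 1, and the intervals of the highest classes overlap. The classes were not matched for depth, which rises with the number of Dach1 UMIs.

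Each library pooled male and female mice, so cells with Y-linked UMIs and cells with Xist are the nearest to separate animals that these data allow. There were 2305 Control and 2319 Dach1OE ECs with Y-linked UMIs only, and 3018 and 3078 with Xist only. All 6 members stood higher in Dach1OE in both sets of ECs. Both sets are part of the contrast that chose the members, so this direction gives no independent support. Scgb3a1 had log2 ratios of 4.82 and 5.09 in cells with Y-linked UMIs and with Xist, Wfdc1 5.78 and 4.71, and Sh3tc1 0.32 and 0.40, with overlapping intervals.

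The remaining 3 members differed between the sets beyond counting error. How many of all genes do so was not counted. Vsir had a log2 ratio of 0.50 (0.38 to 0.62) in cells with Y-linked UMIs and 1.06 (0.95 to 1.17) in cells with Xist, and Clca3a1 of 0.64 and 1.06. Enpp6 went the other way, with 0.60 and 0.29. Within bmECs the order was the same: 0.80 and 1.26 for Vsir, 1.30 and 1.51 for Clca3a1, and 1.18 and 0.70 for Enpp6. Sex and animal cannot be told apart here.

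**Figure D4:**
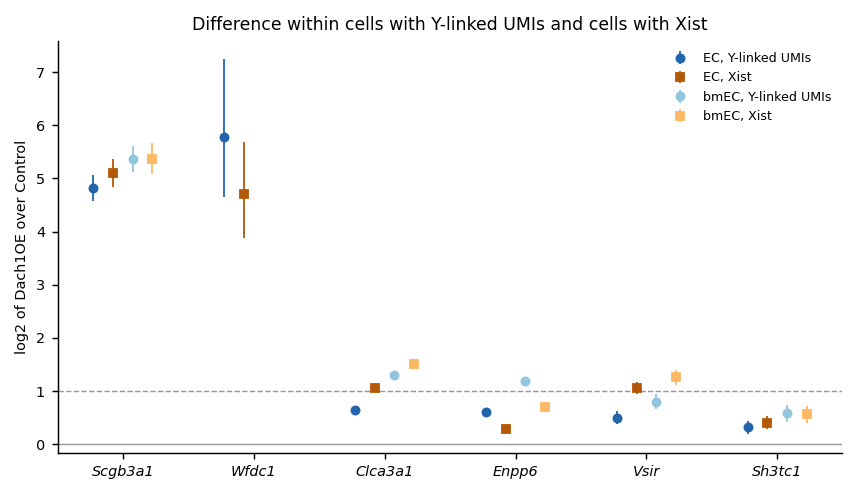
log2 ratio of CPM, Dach1OE over Control, in all ECs and in bmECs, split into cells with Y-linked UMIs only (circles) and cells with Xist only (squares), with exact 95% counting intervals; Wfdc1 in bmECs had under 50 UMIs and is not drawn. All points lie above 0, and Vsir, Clca3a1 and Enpp6 differ between circles and squares beyond their intervals.

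Outside ECs the members fell into groups. ECs held most UMIs of Scgb3a1 and Sh3tc1, 89.3% and 88.3% of those in all kept Dach1OE cells. Clca3a1 (86%), Enpp6 (76%) and Vsir (74.4%) followed. For Wfdc1 the EC share was 5.52% in Control and 53.6% in Dach1OE. At 1000 UMIs per cell, each member but Wfdc1 was found in a larger share of ECs than of any other class of Dach1OE. The members were chosen on their levels in ECs, and how many of all genes do the same was not counted. Nothing is read from this about the set.

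Low counts of EC genes in other classes can come from free RNA or from doublets, and counts of Cdh5 give a rough scale for this. Cdh5 is among the markers of the EC gate, so cells with much Cdh5 were less likely to be placed in another class. This can raise the values outside ECs, and its part was not tested. In Dach1OE ECs there were 26.2 Scgb3a1 UMIs per 100 Cdh5 UMIs. The value was 26.4 in chondrocytes, 24 in haematopoietic cells, 31.1 in fibroblasts, 33.5 in mural cells and 34.2 in the osteoblast lineage, values close to that of ECs. Marrow stromal cells had 58.5 per 100 in Dach1OE (145 UMIs in 57 cells with a UMI). In Control they had 6.83 per 100, against 0.93 in Control ECs. The scale differs between EC subtypes. Dach1OE bmECs had 9917 Scgb3a1 and 18513 Cdh5 UMIs, close in proportion to the 145 and 248 of Dach1OE marrow stromal cells. Control bmECs had 383 and 27365, lower in proportion than the 41 and 600 of Control marrow stromal cells. Scrublet marked 7.16% of Dach1OE and 8.38% of Control marrow stromal cells, and the part of doublets in this was not tested.

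Several members had sources of their own outside ECs. Wfdc1 was highest in mural cells, the pericytes and smooth muscle around vessels, at 65.2 (56.7 to 74.6) CPM in Control and 47.7 (42.4 to 53.6) in Dach1OE. It was also present in the osteoblast lineage, at 11.9 and 12.8. Enpp6 stood at 112 (107 to 117) and 118 (114 to 123) CPM in the osteoblast lineage, with 471 and 411 UMIs per 100 of Cdh5 against 22.9 and 26.8 in ECs. The interval of the Enpp6 ratio in these cells spans no difference (log2 0.071, -0.014 to 0.16).

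Vsir, known from myeloid cells and T cells, stood at 27.2 and 34.1 CPM in haematopoietic cells and at 43.3 and 55.7 in fibroblasts of Control and Dach1OE. Clca3a1 stood at 29.3 and 24.9 CPM in haematopoietic cells, with 334 and 221 UMIs per 100 of Cdh5, far above the 20.3 and 33 of ECs. Sh3tc1 was at most 7.91 CPM in every class outside ECs.

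**Figure D5:**
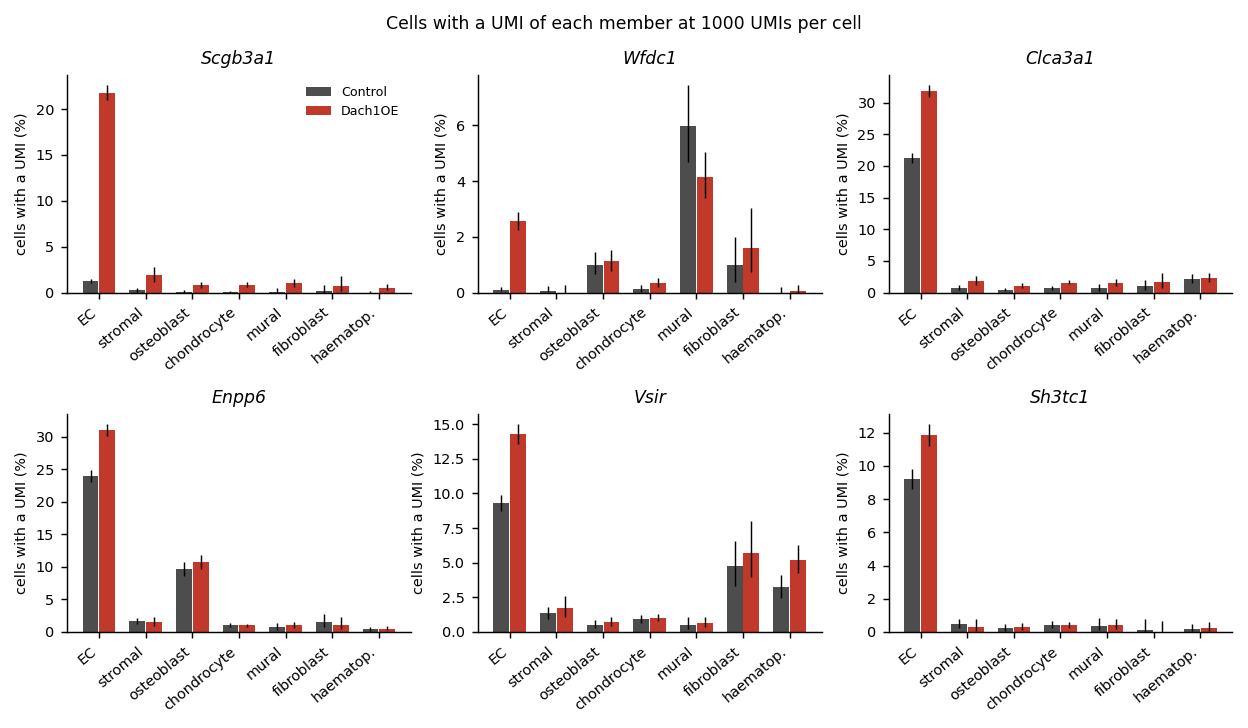
Share of cells (percent, axes from 0) with at least 1 UMI of each member in 7 cell classes of the Control and Dach1OE libraries, all cells thinned to 1000 UMIs, with exact 95% binomial intervals. ECs hold the largest share for every member but Wfdc1, which is largest in mural cells, and Enpp6 has a second population in the osteoblast lineage.

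In single Dach1OE ECs Scgb3a1 was found together with Clca3a1, Vsir, Enpp6 and Sh3tc1 more often than their single shares give, over all ECs and inside bmECs. At 1000 UMIs per cell over all ECs, 1241 Dach1OE cells held both Scgb3a1 and Clca3a1, against 668 from the product of the shares, a ratio of 1.86 (1.76 to 1.96). Inside bmECs the ratio was smaller, at 1.17 (1.10 to 1.25). Inside Dach1OE bmECs, 6 of the 10 pairs that leave out Wfdc1 had an interval above 1, led by Scgb3a1 with Vsir at 1.37 (1.24 to 1.52). The intervals of Clca3a1 with Vsir (1.07), Enpp6 with Vsir (1.03), Enpp6 with Sh3tc1 (1.09) and Vsir with Sh3tc1 (1.15) span 1. Among all 568711 pairs of bmEC genes seen at least as often as the least seen of these members, 0.833% had an interval above 1. Scgb3a1 and Dach1 themselves had a ratio of 1.44 (1.29 to 1.60). In Control bmECs none of these 10 pairs had an interval above 1, where 1.27% of all gene pairs picked by the same rule had one. The rule took in 7011 genes in Control and 1067 in Dach1OE, as Scgb3a1 was seen in few Control bmECs. The background shares of the libraries therefore come from unlike sets of genes. In Control bmECs Clca3a1 with Enpp6 stood at 0.93 (0.84 to 1.02). The Control pairs with Scgb3a1 rest on few cells. They stood at 1.13 (0.60 to 1.92) with Vsir, 1.62 (0.94 to 2.60) with Sh3tc1 and 0.92 (0.62 to 1.32) with Clca3a1, on 13, 17 and 30 cells. These intervals hold the Dach1OE ratios of 1.37, 1.19 and 1.17. With Enpp6 the Control ratio was 0.62 (0.36 to 1.01, 16 cells), below the 1.20 of Dach1OE.

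Wfdc1 lay mainly in aECs of Dach1OE and Scgb3a1 mainly in bmECs, so their values over all ECs mix subtypes. Over all Dach1OE ECs, Wfdc1 and Scgb3a1 shared 14 cells against 53.6 from the product, a ratio of 0.26 (0.14 to 0.44). The ratios of Wfdc1 with Sh3tc1 (0.38), Clca3a1 (0.40) and Vsir (0.43) also had intervals below 1. At 2000 UMIs per cell these were 0.61, 0.54 and 0.87, and the interval for Vsir (0.668 to 1.107) then spans 1. Inside aECs at 1000 UMIs the intervals of Wfdc1 with Scgb3a1 (0.55, 0.18 to 1.30), Clca3a1 (0.96, 0.61 to 1.44), Sh3tc1 (0.56, 0.23 to 1.16) and Enpp6 (1.21, 0.90 to 1.60) span 1. That of Wfdc1 with Vsir did not (0.48, 0.23 to 0.89), on 10 cells, but at 2000 UMIs it did (0.90, 0.66 to 1.20).

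The genes most like each member were sought over 14 populations, 7 EC subtypes in each library, among 11572 genes, by Pearson correlation of log2(CPM + 1). Points from the same library share its depth and its Dach1 status, so the values are descriptions. Scgb3a1 was most like Madcam1, an adhesion molecule for homing lymphocytes (r = 0.92), Gm13305 (0.91) and Pkp2, a desmosomal protein (0.90). Wfdc1 was most like Pdcd4 (0.93), Slc12a8 (0.91) and Clu, the gene of the chaperone clusterin (0.90). Clca3a1 was most like Rdh16 (0.92), Mpp2 (0.89) and Stk32c (0.88).

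Enpp6 was most like Bgn, which encodes the matrix proteoglycan biglycan (r = 0.90), Pfkl, a phosphofructokinase (0.88), and Slc7a2, a transporter of cationic amino acids (0.87). Vsir was most like the immediate early and stress genes Btg2 (0.91), Sik1 (0.90) and Nfkbia (0.88), the last of which encodes the NF-kappaB inhibitor. These 3 were themselves higher in Dach1OE ECs, at log2 0.54, 0.79 and 0.39. Sh3tc1 was most like Txndc12 (0.89), Mapk15 (0.88) and Pja1 (0.87). Among the members, Sh3tc1 and Scgb3a1 (0.79) and Clca3a1 and Scgb3a1 (0.77) were the most alike, while Wfdc1 and Clca3a1 had r = -0.014.

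Relatives of the members were mostly low in ECs. Of 6 other secretoglobins sought, 1 of which is not listed in the tables, none reached 30 EC UMIs. Of 6 other CLCA genes, 2 did, and both stood at least 2-fold higher in Dach1OE, where 3.58% of all EC genes with at least 30 UMIs did. Clca2 went from 93 to 369 UMIs (log2 1.95, 1.61 to 2.29) and Clca3a2 from 77 to 176 (log2 1.15, 0.76 to 1.56). Clca3a2 is a near copy beside Clca3a1, and reads of the pair may have been shared between them.

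Of 19 further genes of the whey acidic protein group, 2 of which are not listed, Slpi (127 and 185 UMIs, log2 0.50) and Wfdc8 (13 and 27) reached 30 EC UMIs. Of 6 other ENPP enzymes, 5 did, with a median log2 ratio of 0.04. Enpp2, which encodes the lysophospholipase D autotaxin, went from 15.2 to 32.1 CPM (log2 1.07, 0.92 to 1.23). Enpp4 (log2 -0.24), Enpp3 (-0.09) and Enpp5 (0.04) differed little.

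Of 15 checkpoint genes related to Vsir, 8 reached 30 EC UMIs, with a median of 0.33. Lgals9, which encodes galectin-9, stood at 211 and 297 CPM (log2 0.49, 0.45 to 0.53). Cd200 was lower in Dach1OE, at 204 and 114 (log2 -0.85, -0.91 to -0.79). Cd276 (log2 0.74) and Cd274, the gene of PD-L1 (61 and 127 UMIs, log2 1.02), were higher. Sh3tc2, the paralog of Sh3tc1, went from 271 to 477 UMIs (log2 0.77, 0.56 to 0.99).

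Vsir lies on the opposite strand within Cdh23, and whether the counting used the strand is not given in the sources used here. Cdh23 had 117 and 110 UMIs in Control and Dach1OE ECs, far fewer than Vsir and without the same difference. Each antisense gene that overlaps Clca3a1, Enpp6, Wfdc1 or Sh3tc1 had at most 5 EC UMIs in a library.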

How the data were processed

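Count tables of RSEC-adjusted UMIs, deposited by the authors for each cell and gene, were used as given. Per the file headers they were made with the BD Rhapsody WTA Analysis Pipeline 1.11 on GRCm38 with GENCODE vM19, counting intronic reads, with refined cell calling on. The members and all gene lists were chosen with earlier results of these data known. Cells with 500 to 6000 genes and under 25% mitochondrial UMIs were kept. Each cell was given to the class, and each EC to the subtype, with the highest marker score (mean over markers of log(1 + counts per 10000), each divided by its 99th percentile). A class score of at least 0.1 with a lead of 0.1 was required, and a subtype score of at least 0.15 with a lead of 0.05. This scoring was settled after the data were seen. UMIs were summed per population and given per 1000000 UMIs of that population (CPM). Ratios carry exact binomial intervals and levels exact Poisson intervals. No test was run, since each group is 1 library. Genes with under 50 summed UMIs were left out of counts over all genes. Named genes were the members, Dach1, the 3 genes most like each member (of those with at least 200 EC UMIs) and at most 4 genes per family with at least 30 EC UMIs. Doublets were marked with Scrublet (scanpy 1.11.5) and kept. Calculations used Python 3.11.15, and TMM factors came from edgeR 4.0.16. The ratio calculation was tested on simulated data.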

Additional observations from a re-analysis of the deposited data

Results flagged for a closer look

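Enpp6 was lower in Dach1OE than in Control in mpECs (log2 ratio -0.14, -0.24 to -0.043) while it was higher in bmECs (0.95), that is, the library difference ran in opposite directions in these EC subtypes. The difference between the subtypes was not tested. In cells with Y-linked UMIs the mpEC value was 0.18 (-0.017 to 0.37) and in cells with Xist -0.21 (-0.38 to -0.046).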

How the results depend on the processing

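The count of 2 members past 2-fold over all ECs stayed at 2 with raw UMIs, at least 1000 genes per cell, under 10% mitochondrial UMIs, a stricter EC gate, doublets left out, TMM scaling, no UMI minimum, cells with Y-linked UMIs only, or shared cell indexes left out (chosen after seeing the data). It was 4 in cells with Xist only and 3 with equal weight of subtypes or at the Control make-up (the latter also chosen after seeing the data). The median log2 ratio of 0.82 was 0.62 in cells with Y-linked UMIs, 1.06 in cells with Xist, 1.13 with equal weight and 1.20 at the Control make-up. With equal weight Scgb3a1 went from 5.03 to 5.97 and Wfdc1 from 4.88 to 3.69, and Wfdc1 was 5.78 in cells with Y-linked UMIs and 3.24 at the Control make-up. The median by Dach1 UMI status, 0.37, was 0.52 in cells with Xist and 0.47 with equal weight. In bmECs, 6 pairs were co-detected above the product at 1000 UMIs and 5 at 2000. At 2000 the intervals of Clca3a1 with Enpp6 (0.996 to 1.109) and with Sh3tc1 (0.954 to 1.127) span 1. That of Vsir with Sh3tc1, which spans 1 at 1000, then lies above it (1.009 to 1.294). Over all ECs, Enpp6 with Sh3tc1 had an interval that spans 1 at 1000 UMIs (0.97 to 1.19) and one above it at 2000 (1.01 to 1.16). For Wfdc1 in aECs, 3.67 became 5.06 under 10% mitochondrial UMIs, and for Clca3a1 in aECs 2.61 became 4.65 with Y-linked UMIs (1 Control UMI) and 3.30 with Xist. For Scgb3a1 in aECs, 5.65 became 4.19 with Xist. Of 72 values of single members over all ECs under these settings, 72 kept their direction, as did 60 of 60 by Dach1 status and 154 of 158 in subtypes. The direction turned for Enpp6 in mpECs (0.18 in cells with Y-linked UMIs), Enpp6 in rECs (-0.026 with Xist) and Vsir in rECs (-0.079 with Y-linked UMIs), and for Sh3tc1 in aECs (0.15 with Xist). Their cause was not tested. With no UMI minimum, 10.5% of all genes stood past 2-fold, as few counts give large ratios. No paired analysis was possible because each group is 1 library and no test was run. The number of cells limits the aEC (254), tip-like (81) and lymphatic (109) gates of Control, and a difference between the libraries cannot be told apart from one between their mice.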
